A study of Mus musculus with 15 samples.

Results

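The enzymes that write, maintain and remove cytosine methylation were followed across 5 mouse myeloma cell lines. The 7 genes were chosen by name from the deposited table, which writes them DNMT1, DNMT3A, DNMT3B, UHRF1, TET1, TET2 and TET3, and all 7 were found among its 32434 entries. All 7 also passed the filter of at least 1 CPM, the count scaled by library size, in at least 3 libraries, which 11773 genes passed. The lines, numbered IL6Myc-1 to IL6Myc-5, all have the genotype IL6Myc and are all described by the submitters as mouse myeloma, the tumour of plasma cells, which secrete antibody. From every line 3 technical replicate libraries were sequenced, 15 in all. The labels give no treatment, and no normal plasma cell or other control belongs to the panel, so each line is set against the other 4. The sources used here do not give age, passage or the promoters that drive IL6 and Myc, and each line is a single biological unit. P-values therefore measure only the technical spread among libraries of a line, not how lines of this genotype vary.

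Methyl groups on the cytosine of CpG dinucleotides are copied onto the new DNA strand after replication by the maintenance methyltransferase Dnmt1, which is brought to hemimethylated sites by Uhrf1. New methylation is set by the de novo methyltransferases Dnmt3a and Dnmt3b. The dioxygenases Tet1, Tet2 and Tet3 oxidise methylcytosine, using alpha-ketoglutarate, and so open the way to its removal. In the mouse B lineage, Dnmt3a, Dnmt3b, Tet2 and Tet3 are known for roles in the change from activated B cell to plasma cell.

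Library totals lay between 19068537 and 41165626 rounded counts, with the highest in IL6Myc-1 replicate 1. The plasma cell label was checked against marker genes: Sdc1, Xbp1, Irf4, Prdm1, Jchain and Mzb1 were present in every line, the summed level of 12 plasma and B cell markers was 47940 to 111500 CPM by line, and of the B cell genes Ms4a1 was at 54.9 to 204.5 CPM by line, while Pax5 stayed under 1 CPM on average in each line. Summed markers of other cells reached at most 11.95 CPM for 9 myeloid genes, 28.3 CPM for 8 T and NK cell genes, 26.9 CPM for 8 stromal and endothelial genes and 0.478 CPM for 4 erythroid genes. The markers of other cells at 5 CPM or more were Pecam1 (14.3 to 26.3 CPM by line), Cd3g (up to 22 CPM in IL6Myc-4), Itgam (11.6 CPM in IL6Myc-2) and Cd3d (7.6 CPM in IL6Myc-2), while Lyz2, Cd3e, Cd8a and Cdh5 were at or near 0. Their part in the results was not tested.

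The 2 de novo methyltransferases and Tet3 differed among the lines, while the maintenance genes and Tet2 kept within a log2 range of 1. A gene was called among the lines at an adjusted p under 0.05 in edgeR's F-test and a log2 range of at least 1 between the highest and the lowest line. Dnmt3a, Dnmt3b and Tet3 were called, 3 of 7, while 32.1% of all tested genes were called. Their log2 ranges and adjusted p-values were 3.62 and 1.74e-06 for Dnmt3a, 6.95 and 1.41e-09 for Dnmt3b, and 1.47 and 1.18e-12 for Tet3. The median log2 range of the 7 genes was 1.47, that of Tet3, against 0.70 over all tested genes. With 7 genes this median rests on a single gene, and the ranges above it include that of Tet1 (2.09), which was not called. Dnmt1, Uhrf1 and Tet2 had adjusted p-values under the threshold but ranges under 1, and Tet1 missed the p threshold (adjusted p = 0.112). In bulk RNA, fewer cells that express a gene and less RNA of it per cell cannot be told apart.

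**Figure D1:**
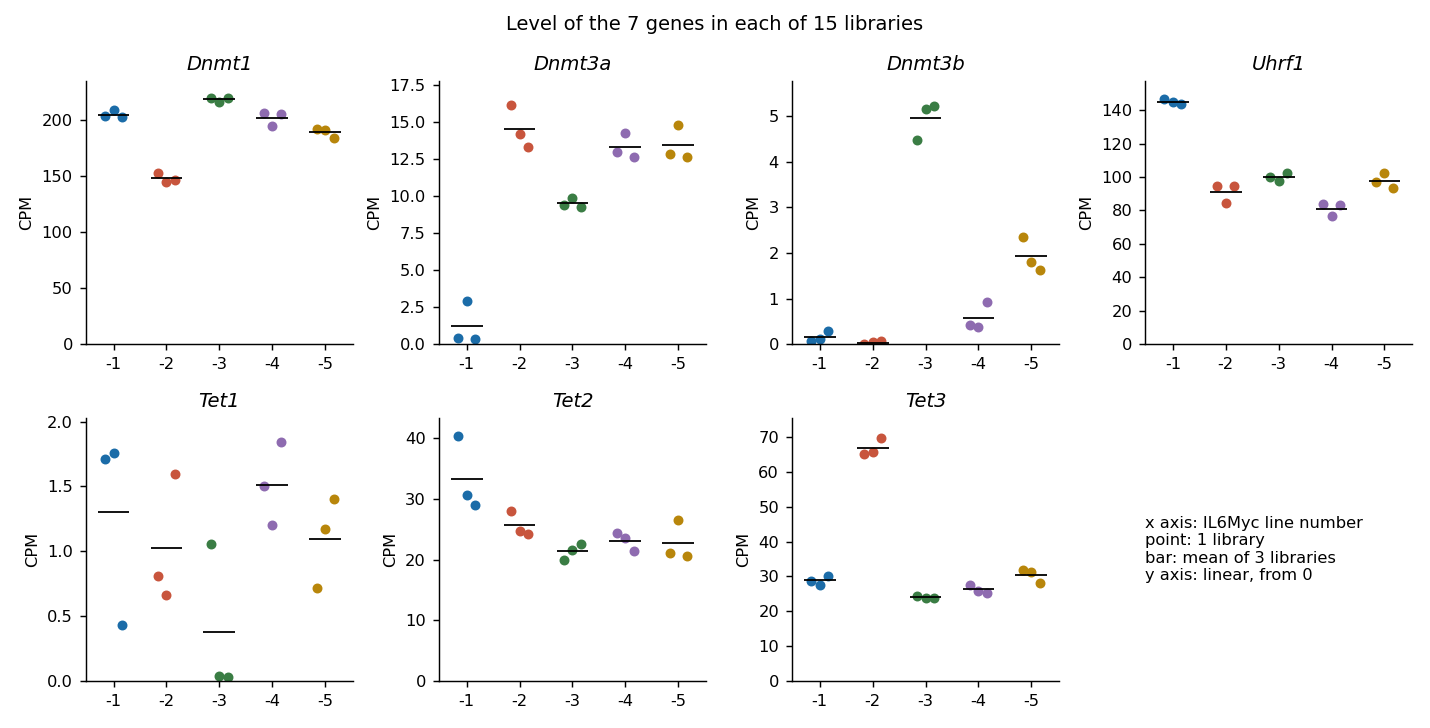
Level of each gene in CPM (linear y axis from 0) in every library, with the 5 lines along the x axis. Points are single libraries and bars are means of 3; the Dnmt3a points of IL6Myc-1 lie under those of the other lines, Dnmt3b stands highest in IL6Myc-3, and Tet3 stands highest in IL6Myc-2.

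Averaged over the lines, Dnmt1, the maintenance methyltransferase, was the most abundant of the 7 genes, at 32.7 CPM per kb of transcript. By this measure Uhrf1 stood above Dnmt1 in IL6Myc-1 (40.4 against 34.8) and slightly in IL6Myc-2 (25.42 against 25.16). Dnmt1 stood, in CPM in the 3 libraries of a line, at 203, 209 and 202 for IL6Myc-1, at 152.5, 144.5 and 146 for IL6Myc-2, at 219.5, 216 and 219 for IL6Myc-3, at 206, 195 and 205 for IL6Myc-4 and at 191.5, 191 and 184 for IL6Myc-5. All 3 IL6Myc-2 libraries lay under the other 12, and all 3 IL6Myc-3 libraries lay above the other 12. The difference of IL6Myc-2 from the other 4 lines was -0.46 ± 0.03 on the log2 scale (SE, adjusted p = 6.05e-10), which is significant against the technical spread but under the size threshold. In order from high to low the lines ran IL6Myc-3, IL6Myc-1, IL6Myc-4, IL6Myc-5 and IL6Myc-2, and the neighbours IL6Myc-1 and IL6Myc-4 did not differ beyond their spread (0.02 ± 0.04, adjusted p = 0.662). None of the 10 pairs of lines passed both thresholds for Dnmt1.

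Uhrf1, the reader of hemimethylated DNA that recruits Dnmt1, had its high level in a different line. Uhrf1 stood, in CPM in the 3 libraries of a line, at 146, 145 and 144 for IL6Myc-1, at 94.45, 84.6 and 94.4 for IL6Myc-2, at 100.2, 97.8 and 102 for IL6Myc-3, at 83.9, 76.5 and 83.1 for IL6Myc-4 and at 96.7, 103 and 93.5 for IL6Myc-5. The 3 IL6Myc-1 libraries all lay above the 12 others, and those of IL6Myc-4 all lay below. IL6Myc-1 differed from the other 4 lines by 0.65 ± 0.04 on the log2 scale (adjusted p = 1.53e-10), again under the size threshold. Among neighbours in the order that ran IL6Myc-1, IL6Myc-3, IL6Myc-5, IL6Myc-2, IL6Myc-4, the pairs IL6Myc-3 with IL6Myc-5 (adjusted p = 0.549) and IL6Myc-2 with IL6Myc-5 (adjusted p = 0.112) did not differ beyond their spread. Per length, the level of Uhrf1 over that of Dnmt1 was 1.16 ± 0.02 in IL6Myc-1, 1.01 ± 0.05 in IL6Myc-2, 0.751 ± 0.012 in IL6Myc-3, 0.658 ± 0.013 in IL6Myc-4 and 0.847 ± 0.029 in IL6Myc-5 (SD, n = 3 libraries each). In CPM, Uhrf1 was below Dnmt1 in every line (145 against 204.5 in IL6Myc-1). A ratio above 1 thus rests on the transcript lengths used, 3.586 kb for Uhrf1 and 5.87 kb for Dnmt1. This ratio of levels was not tested.

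Both maintenance genes carry a word of the kind bound by E2F, the transcription factor family that drives genes of DNA replication, upstream of an annotated start in RefSeq. The 4 words searched were TTTCCCGC, TTTCGCGC, TTTGGCGC and TTTGCCGC, on both strands and with overlaps counted as 1, in the 250 bases before each start. Of 32851 such windows of 27025 genes, 1.86% held a word, and of 12 windows of the 7 genes, 2 did. Every word contains a CpG, and these windows held 26 (Dnmt1) and 30 (Uhrf1) CpG dinucleotides, against a median of 6 over all windows. The share among windows equally rich in CpG was not counted. The 2 matches are shown because Dnmt1 and Uhrf1 are the replication-coupled members, 30 bases each from RefSeq (GRCm38.p6), with the word in capitals. The Dnmt1 stretch is chr9:20952824-20952853 on the minus strand, its word 219 bases before the last of 3 annotated starts, and the Uhrf1 stretch is chr17:56304117-56304146 on the plus strand, its word 185 bases before the last of 2.
Dnmt1: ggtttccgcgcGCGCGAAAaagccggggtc
Uhrf1: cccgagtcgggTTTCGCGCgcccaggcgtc
A match of letters is a description of the window, not a binding site.

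Dnmt3a, a de novo methyltransferase, was low in IL6Myc-1. Dnmt3a stood, in CPM in the 3 libraries of a line, at 0.439, 2.9 and 0.384 for IL6Myc-1, against 16.1, 14.2 and 13.3 for IL6Myc-2, at 9.41, 9.9 and 9.29 for IL6Myc-3, at 13, 14.3 and 12.7 for IL6Myc-4 and at 12.9, 14.8 and 12.6 for IL6Myc-5. All 3 IL6Myc-1 libraries lay below the 12 others, and the ranges of IL6Myc-2, IL6Myc-4 and IL6Myc-5 overlapped. Against the other 4 lines, IL6Myc-1 differed by -3.40 ± 0.34 on the log2 scale (adjusted p = 1.68e-07). The level in the next lowest line, IL6Myc-3, was 7.67 times that of IL6Myc-1.

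The 3 technical replicates of IL6Myc-1 did not give the same Dnmt3a level: they held 19, 76 and 8 counts, and replicate 2 was 7.56 times replicate 3 in CPM. Of 1584 genes with a mean of 0.3 to 3 CPM in that line, 0.821% had a wider spread between the 3 libraries. Without IL6Myc-1 replicate 2 the difference was -4.88, and without replicate 1 it was -2.84, so the call held in both cases at a different size. IL6Myc-2 was called higher in Dnmt3a (1.12 ± 0.24, adjusted p = 0.00055), a contrast whose comparison side includes IL6Myc-1. Without IL6Myc-1 replicate 1 that difference was 0.98 and missed the size threshold. Without IL6Myc-1 replicate 2, IL6Myc-4 (1.33) and IL6Myc-5 (1.34) were called as well, and IL6Myc-5 was also called without its own replicate 1 or replicate 3 (1.01). Between pairs of the lines other than IL6Myc-1, no Dnmt3a difference passed the test, the widest being IL6Myc-2 against IL6Myc-3 (0.61 ± 0.30, adjusted p = 0.0845). Every called pair in Dnmt3a included IL6Myc-1.

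The Dnmt3a gene has 3 annotated starts in the RefSeq promoter table, and the table of levels gives 1 value for the gene, so its transcripts cannot be told apart here. The 250 bases before the first start hold 38 CpG dinucleotides, more than 98.1% of all windows, whose median was 6. The window is shown, with every CpG in capitals, because the gene is itself among those that vary; it lies at chr12:3806730-3806979 (GRCm38.p6, plus strand).
Dnmt3a: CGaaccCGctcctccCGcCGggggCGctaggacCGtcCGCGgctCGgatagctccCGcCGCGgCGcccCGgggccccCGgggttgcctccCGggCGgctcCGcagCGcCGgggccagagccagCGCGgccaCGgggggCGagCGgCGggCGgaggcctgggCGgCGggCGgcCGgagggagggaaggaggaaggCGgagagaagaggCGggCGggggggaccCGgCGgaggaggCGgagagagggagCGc
Methylation of these sites was not measured. The antisense gene Dnmt3aos, which overlaps Dnmt3a on the opposite strand, reached at most 0.123 CPM in any library.

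Dnmt3b, the other de novo enzyme, had the widest range of the 7 genes. Dnmt3b stood, in CPM in the 3 libraries of a line, at 4.48, 5.15 and 5.23 for IL6Myc-3, at 2.35, 1.8 and 1.63 for IL6Myc-5, at 0.429, 0.387 and 0.921 for IL6Myc-4, at 0.0693, 0.115 and 0.288 for IL6Myc-1 and at 0, 0.0508 and 0.0613 for IL6Myc-2. The libraries of each line did not overlap those of any other line. The gene passed the filter through 6 libraries at 1 CPM or more, those of IL6Myc-3 and IL6Myc-5, so a difference among the lines was built into its passing. The counts behind these levels were 410 over the 3 libraries of IL6Myc-3, 136 in IL6Myc-5, 46 in IL6Myc-4, 12 in IL6Myc-1 and 2 in IL6Myc-2.

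IL6Myc-3 (4.13 ± 0.25, adjusted p = 7.42e-10) and IL6Myc-5 (2.44 ± 0.30, adjusted p = 3.46e-06) were called higher in Dnmt3b on the log2 scale. IL6Myc-1 was called lower (-2.28 ± 0.59, adjusted p = 0.00264), as was IL6Myc-2 (-4.55 ± 0.62, adjusted p = 7.09e-06). The fitted value of IL6Myc-2 and its SE both depend on the prior count, because only 2 counts stand behind them. That SE does not show the full counting error. From the counts, the level in IL6Myc-3 was 142 times that in IL6Myc-2, with a 95% exact interval of 39 to 1175 that covers counting error only. Of the 10 pairs of lines 9 were called, and the exception was the pair of the lowest lines, where the level in IL6Myc-1 was 3.78 times that in IL6Myc-2 (interval 0.842 to 34.8, adjusted p = 0.0954). The order of the lines in Dnmt3b is unlike that in Dnmt3a, since IL6Myc-2 was lowest in Dnmt3b and highest in Dnmt3a on average.

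The 250 bases before the annotated start of Dnmt3b hold 21 CpG dinucleotides, more than 83.6% of all windows. The window before the first Dnmt3a start is denser (38), and that before its last start is less dense (15). The Dnmt3b window is shown for comparison, with every CpG in capitals, and lies at chr2:153649199-153649448 (GRCm38.p6, plus strand, RefSeq).
Dnmt3b: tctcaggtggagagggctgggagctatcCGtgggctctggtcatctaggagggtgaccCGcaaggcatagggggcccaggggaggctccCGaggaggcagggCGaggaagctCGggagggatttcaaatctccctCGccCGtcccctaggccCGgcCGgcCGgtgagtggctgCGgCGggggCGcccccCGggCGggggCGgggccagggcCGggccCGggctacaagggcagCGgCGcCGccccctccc
No E2F word was found in the windows of Dnmt3a or Dnmt3b.

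Set side by side per length, the 2 de novo genes gave different mixtures in the lines. The summed level of Dnmt3a and Dnmt3b was 0.165 ± 0.142 CPM per kb in IL6Myc-1, 1.51 ± 0.14 in IL6Myc-2, 2.13 ± 0.11 in IL6Myc-3, 1.51 ± 0.06 in IL6Myc-4 and 1.83 ± 0.14 in IL6Myc-5 (SD, n = 3 libraries each). IL6Myc-3 was the line in which Dnmt3b stood above Dnmt3a on average per length, at 1.17 ± 0.10 times its level. That order rests on the transcript lengths used, 9.685 kb for Dnmt3a and 4.32 kb for Dnmt3b. In CPM, Dnmt3b was below Dnmt3a in IL6Myc-3 (4.95 against 9.53). Per length, the ratio was 0.324 ± 0.074 in IL6Myc-5, 0.0993 ± 0.0556 in IL6Myc-4 and 0.00612 ± 0.00542 in IL6Myc-2. In IL6Myc-1 both levels were too low for a steady ratio (0.708 ± 0.853). In every line Dnmt1 made up most of the summed methyltransferase level per length, from 94.35% in IL6Myc-2 to 99.5% in IL6Myc-1.

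**Figure D2:**
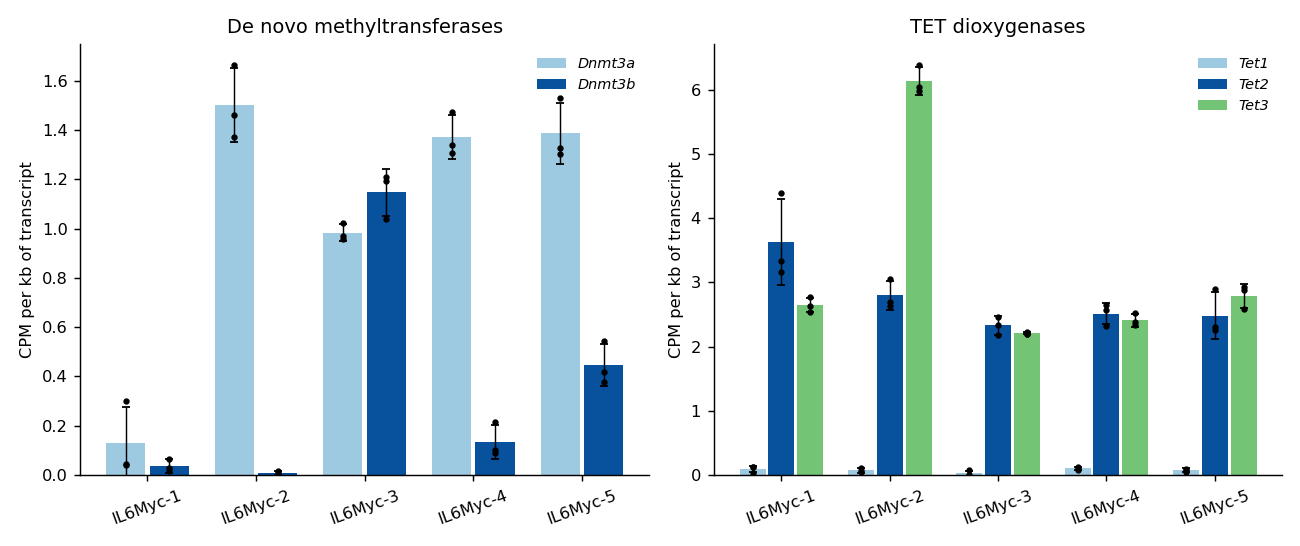
Levels of the de novo methyltransferases (left) and the TET genes (right) in CPM per kb of transcript, by line. Bars are means, points single libraries and error bars SD (n = 3). Per kb, the mean of Dnmt3b is above that of Dnmt3a in IL6Myc-3, which it is not in CPM (4.95 against 9.53). Tet3 stands at 2.21 times Tet2 per kb in IL6Myc-2.

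Tet3 was the TET gene that was called among the lines, with its high level in IL6Myc-2. Tet3 stood, in CPM in the 3 libraries of a line, at 65.1, 65.8 and 69.7 for IL6Myc-2, against 28.7, 27.7 and 30.1 for IL6Myc-1, at 24.3, 23.9 and 23.9 for IL6Myc-3, at 27.5, 25.9 and 25.4 for IL6Myc-4 and at 31.9, 31.3 and 28.1 for IL6Myc-5. All 3 IL6Myc-2 libraries lay above the 12 others, and the level was 2.2 times that of the next line, IL6Myc-5. IL6Myc-2 differed from the other 4 lines by 1.29 ± 0.04 on the log2 scale (adjusted p = 1.08e-13), and it was called against each of them, by 1.14 to 1.47. IL6Myc-3 was the lowest (-0.55 ± 0.05, adjusted p = 7.24e-08), under the size threshold. Next to each other in the order, IL6Myc-5 and IL6Myc-1 (adjusted p = 0.258), IL6Myc-1 and IL6Myc-4 (adjusted p = 0.059) and IL6Myc-4 and IL6Myc-3 (adjusted p = 0.0845) did not differ beyond their spread.

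The window before the annotated start of Tet3 holds 17 CpG dinucleotides, more than 76.5% of all windows, and no E2F word. It is shown, with every CpG in capitals, as that of the called TET gene, from RefSeq at chr6:83441679-83441928 (GRCm38.p6, minus strand).
Tet3: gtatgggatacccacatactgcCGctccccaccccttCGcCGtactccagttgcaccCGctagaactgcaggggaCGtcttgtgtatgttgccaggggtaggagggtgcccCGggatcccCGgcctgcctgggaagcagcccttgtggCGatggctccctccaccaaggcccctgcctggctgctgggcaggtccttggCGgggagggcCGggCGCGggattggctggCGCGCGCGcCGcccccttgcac

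Tet2, the TET gene that is recurrently mutated in human blood cancers, varied little. Tet2 stood, in CPM in the 3 libraries of a line, at 40.3, 30.6 and 29 for IL6Myc-1, at 28, 24.8 and 24.2 for IL6Myc-2, at 20, 21.5 and 22.6 for IL6Myc-3, at 24.3, 23.6 and 21.3 for IL6Myc-4 and at 21.1, 26.6 and 20.7 for IL6Myc-5. The 3 IL6Myc-1 libraries lay above the 12 others, with replicate 1 the highest, and the ranges of IL6Myc-2, IL6Myc-4 and IL6Myc-5 overlapped. IL6Myc-1 differed from the other 4 lines by 0.54 ± 0.09 (adjusted p = 5.09e-05), under the size threshold, and no pair of the lines other than IL6Myc-1 passed the p threshold. As levels per length, Tet3 stood at 2.21 ± 0.23 times Tet2 in IL6Myc-2, against 0.745 ± 0.138 in IL6Myc-1, 0.95 ± 0.067 in IL6Myc-3, 0.96 ± 0.038 in IL6Myc-4 and 1.14 ± 0.14 in IL6Myc-5 (SD, n = 3 libraries each). The summed TET level per length was 9 ± 0.19 CPM per kb in IL6Myc-2 and 4.56 to 6.36 CPM per kb on average in the other lines.

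Tet1, which is abundant in embryonic stem cells, was low, at 0.376 to 1.51 CPM on average by line. Tet1 stood, in CPM in the 3 libraries of a line, at 1.71, 1.76 and 0.432 for IL6Myc-1, at 0.811, 0.661 and 1.59 for IL6Myc-2, at 1.06, 0.0371 and 0.0325 for IL6Myc-3, at 1.5, 1.2 and 1.84 for IL6Myc-4 and at 0.716, 1.17 and 1.4 for IL6Myc-5. The lines overlapped, and the libraries of IL6Myc-3 disagreed with each other, with 26, 1 and 1 counts. IL6Myc-3 was called lower (-1.79 ± 0.64, adjusted p = 0.0275). That call was lost without its replicate 2 (-1.25, adjusted p = 0.133) or its replicate 3 (-1.19, adjusted p = 0.144). Without its replicate 1 the difference was -4.95 (adjusted p = 0.000109), and Tet1 was then called among the lines, with a log2 range of 5.26. In IL6Myc-1 too, 1 library stood apart, with 74, 46 and 9 counts.

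**Figure D3:**
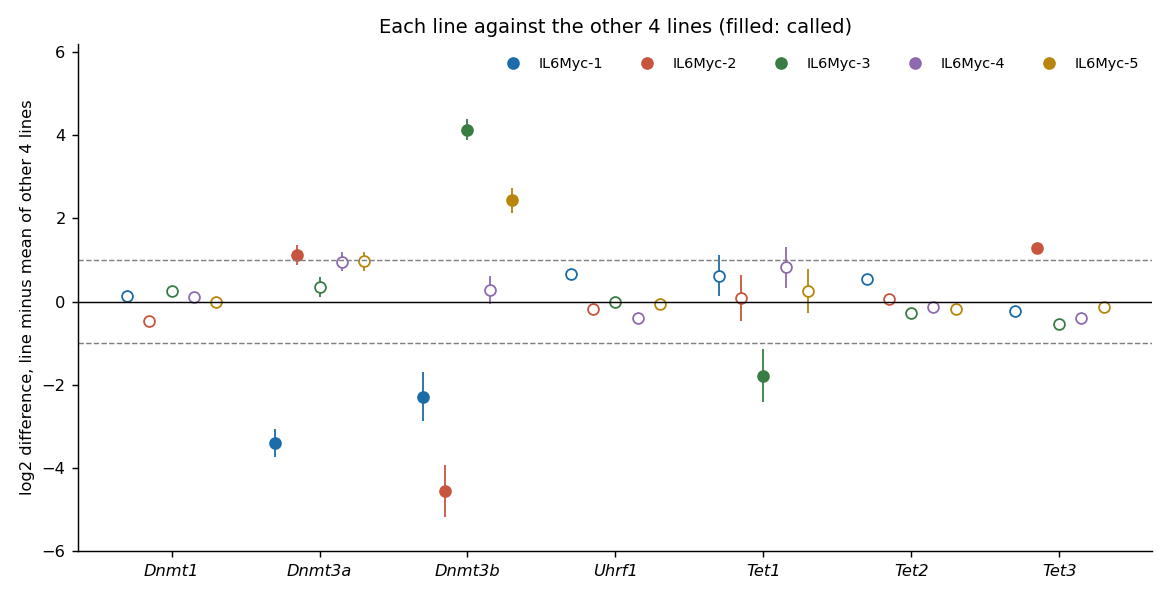
Log2 difference of each line from the mean of the other 4 lines for each gene, with the SE as a vertical line; filled points passed both the p and the size threshold (dashed lines at 1 and -1). The 8 filled points are in Dnmt3a, Dnmt3b, Tet1 and Tet3.

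Counted by line, IL6Myc-1 was called lower in 2 of the 7 genes (Dnmt3a and Dnmt3b; 8.11% of all tested genes) and higher in 0 (4.39% of all tested genes), with 0.65 in Uhrf1 as its highest difference. IL6Myc-2 was called higher in 2 (Dnmt3a and Tet3; background 8.6%) and lower in 1 (Dnmt3b; background 4.08%). IL6Myc-3 was called higher in 1 (Dnmt3b; background 4.6%) and lower in 1 (Tet1; background 3.05%). IL6Myc-5 was called higher in 1 (Dnmt3b; background 4.8%) and lower in 0 (background 3.19%), with -0.17 in Tet2 as its lowest difference. IL6Myc-4 was called in 0 in either direction (background 5.28% higher and 4.37% lower), and its differences ran from -0.39 in Uhrf1 and Tet3 to 0.96 in Dnmt3a.

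Between pairs of lines, 19 of the 70 differences of the 7 genes were called. IL6Myc-1 and IL6Myc-3 had 3 called differences, in Dnmt3a, Dnmt3b and Tet1 (11.4% of all tested genes were called in this pair). IL6Myc-1 had 2 against each of IL6Myc-2 (Dnmt3a and Tet3; background 19%), IL6Myc-4 (Dnmt3a and Dnmt3b; background 15.7%) and IL6Myc-5 (Dnmt3a and Dnmt3b; background 14.6%). IL6Myc-2 had 2, in Dnmt3b and Tet3, against each of IL6Myc-3 (background 14%), IL6Myc-4 (background 14%) and IL6Myc-5 (background 12.2%). IL6Myc-3 had 2 against IL6Myc-4 (Dnmt3b and Tet1; background 11.5%) and 1 against IL6Myc-5 (Dnmt3b; background 9.86%), and IL6Myc-4 had 1 against IL6Myc-5 (Dnmt3b; background 11.3%). Dnmt3b was called in 9 of its 10 pairs, Dnmt3a and Tet3 in 4 each, Tet1 in 2, and Dnmt1, Uhrf1 and Tet2 in 0.

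The genes next to the called members on the chromosome were compared in the same contrast. The order of the 5 tested genes on either side came from the RefSeq table of GRCm38.p6. Of all tested genes, 4.39% were called higher and 8.11% lower in IL6Myc-1. These shares were 8.6% and 4.08% in IL6Myc-2, and 4.6% and 3.05% in IL6Myc-3. At such shares, any 10 genes hold few calls. Around Dnmt3a, 0 of 10 neighbours were called in IL6Myc-1, and their log2 differences ran from -0.45 (Ncoa1) to 0.58 (Itsn2) with a median of -0.04. Around Dnmt3b, 0 of 10 were called in IL6Myc-3 (median 0.01, from -0.37 in Necab3 to 0.53 in Nol4l), and 0 of 10 in IL6Myc-2, where the median was -0.39 and 2 were above 0, against 48.9% of all tested genes. The neighbours of Dnmt3b in IL6Myc-2 thus lay mostly below 0, as Dnmt3b did, while those of Dnmt3a in IL6Myc-1 and of Dnmt3b in IL6Myc-3 lay on both sides of 0.

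Tet3 in IL6Myc-2 was flanked by genes whose log2 differences there were mostly above 0. Of its 10 neighbours 0 were called, but 8 had log2 differences above 0, with a median of 0.44 and a highest value of 0.86 in Mthfd2, against 48.9% of all tested genes above 0 in that line. Around Tet2 in IL6Myc-1, 9 of 10 neighbours were above 0 (50.5% of all tested genes), with a median of 0.42, and 1 was called, the adjacent tested gene on one side, Cxxc4 (2.24 ± 0.15, adjusted p = 1.38e-09). The Tet2 difference of 0.54 was within the range of its neighbours. Calls of 0 or 1 among 10 neighbours are to be read beside the shares of all tested genes given above. Copy number was not measured, and whether neighbours share a cause was not tested. For Uhrf1 in IL6Myc-1, 3 of 10 neighbours were above 0 (-0.28 to 0.25), and for Tet1 in IL6Myc-3 it was 5 of 10, while Pbld2 was called lower (-1.01 ± 0.34, adjusted p = 0.0212).

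**Figure D4:**
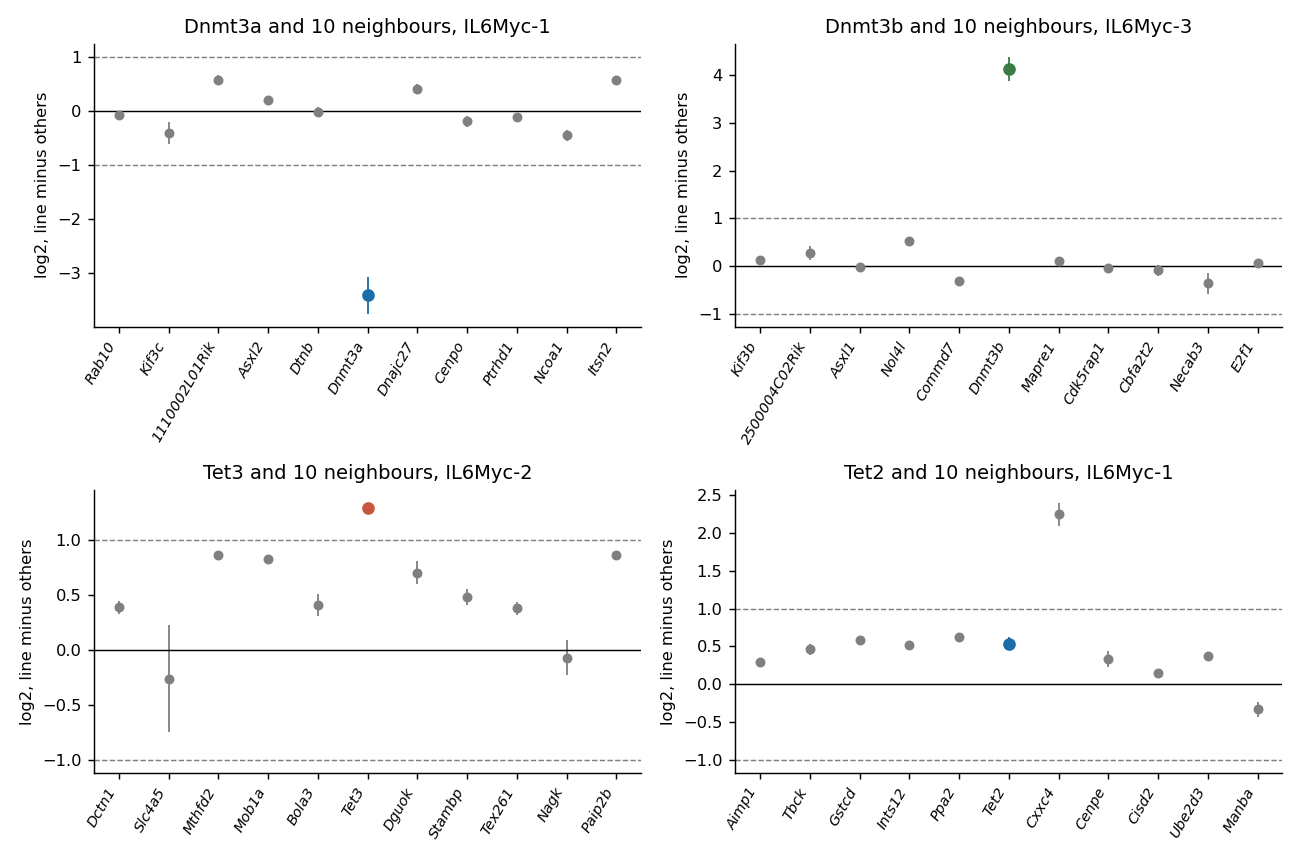
Log2 difference of the named line from the other 4 lines for a member (coloured, in the middle) and its 5 nearest tested genes on either side in chromosome order (grey), with SE; dashed lines mark 1 and -1. Dnmt3a is at -3.40 and Dnmt3b at 4.13, with neighbours within 0.58 and 0.53 of 0. Above 0 lie 8 of the 10 neighbours of Tet3 and 9 of those of Tet2.

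By the pattern of levels over the 15 libraries, the genes most like each called member were found from the root-mean-square (RMS) difference of centred log2(CPM + 1) values, among 10982 genes. For Dnmt3a they included Fggy, a carbohydrate kinase (RMS difference 0.37), and Parp14, an ADP-ribosyltransferase (0.38), where the RMS of Dnmt3a around its own mean was 1.17. Both were lowest in IL6Myc-1, with Parp14 at 1.68 ± 0.19 CPM in IL6Myc-1, against 9.08 to 20.2 CPM on average in the other lines. For Dnmt3b they were the serine protease gene Htra4 (0.30), the copine gene Cpne2 (0.33) and the glutathione transferase gene Mgst1 (0.38), against an RMS of 0.95 of Dnmt3b itself. Mgst1, at 2.77 ± 0.54 CPM in IL6Myc-3 and at most 0.51 CPM on average elsewhere, passed the filter through the line where it is high, so its likeness to Dnmt3b was partly fixed by the filter. Htra4 had the same order of lines, with 163 ± 2 CPM in IL6Myc-3, 123 ± 2 in IL6Myc-5, 71.8 ± 1.3 in IL6Myc-4, 38.8 ± 0.1 in IL6Myc-1 and 32 ± 1.4 in IL6Myc-2 (SD, n = 3 each). For Tet3 they were the lipid-transfer gene Stard5 (0.10), the zinc-finger factor gene Klf10 (0.11) and Tnfsf13 (0.12), which encodes the plasma cell survival ligand APRIL, against an RMS of 0.52 of Tet3 itself. The same holds for Tnfsf13, at 1.44 ± 0.22 CPM in IL6Myc-2 and at most 0.052 CPM on average elsewhere. Klf10 stood at 60.7 ± 1.1 CPM in IL6Myc-2, against 21 to 27 CPM on average in the other lines. With 5 lines, likeness of this kind is a description of the order of the lines.

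The other genes of the pathway were read from 9 lists. Of their 159 genes, 123 were tested and 23 were called among the lines (18.7%, against 32.1% of all tested genes). The median log2 range was 0.58, but single genes such as Cxxc4 (6.34) and Uhrf2 (2.74) had wider ranges than Tet3 (1.47). The lists were chosen with earlier results of these lines known, and no test of a list was made.

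Among partners of maintenance methylation, 4 of 11 tested genes were called, and they did not share a direction. Uhrf2, the paralog of Uhrf1, was called lower in IL6Myc-1, at 3.3 ± 0.76 CPM, against 16.4 ± 2.6 CPM in IL6Myc-2, 21 ± 1.8 in IL6Myc-3, 7.91 ± 0.67 in IL6Myc-4 and 22.4 ± 0.3 in IL6Myc-5 (log2 difference -2.23). Thus the line with the highest Uhrf1 had the lowest Uhrf2. Hells, the chromatin remodeller that supports methylation of heterochromatin, and its partner Cdca7 were highest in IL6Myc-1 (129 ± 9 and 51 ± 1 CPM), but by 0.99 and 0.91 on the log2 scale, under the size threshold in that contrast. Zfp57, which protects imprinted methylation, was at 1.87 ± 0.60 CPM in IL6Myc-5 and 1.09 ± 0.45 in IL6Myc-2, and under 0.2 CPM on average in the other lines. It passed the filter through the lines where it is high, so a difference was built into its passing. Pcna, the replication clamp, had a log2 range of 0.71 and was not called.

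Of 19 tested relatives and partners of the de novo enzymes 1 was called, Kdm2b, a reader of unmethylated CpG islands, at 44.9 ± 2.3 CPM in IL6Myc-1 and 61.1 to 106 CPM on average in the other lines (log2 difference -1.01). Dnmt3l, the catalytically inactive cofactor of the de novo enzymes, did not pass the filter. Of 13 genes of CpG binding proteins 2 were called. They were Cxxc4, whose product binds unmethylated CpG and TET2 and whose gene lies beside Tet2, and its relative Cxxc5. Cxxc4 was at 10.5 ± 1.1 CPM in IL6Myc-3, 6.92 ± 1.40 in IL6Myc-1, 1.98 ± 0.47 in IL6Myc-5, 1.71 ± 0.22 in IL6Myc-2 and 0.126 ± 0.059 in IL6Myc-4, an order that is not that of Tet2.

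In the list of active demethylation, base excision and TET cofactors, 3 of 14 tested genes were called: the glycosylase gene Neil1 (65.8 ± 4.3 CPM in IL6Myc-5 and 15.1 to 40.25 CPM in the others), the stress-response gene Gadd45b (37.7 ± 2.0 CPM in IL6Myc-4 and 63.1 to 106 CPM in the others) and Hmces, which protects abasic sites. For the enzymes that make or use alpha-ketoglutarate, succinate and fumarate, which set the supply and the inhibitors of TET enzymes, 0 of 18 were called, and the median log2 range was 0.47. For the methionine and folate cycles, which supply the methyl donor, 1 of 16 was called, Mthfd2, with 119 ± 3 CPM in IL6Myc-2 and 46.1 to 77.1 CPM in the others; it is also a neighbour of Tet3. Of 20 replication and proliferation genes 2 were called, Ccne1, highest in IL6Myc-3 (135 ± 3 CPM), and E2f2, highest in IL6Myc-2 (144 ± 12 CPM). The median log2 difference of the list was 0.18 in IL6Myc-1, -0.32 in IL6Myc-2, 0.23 in IL6Myc-3, -0.06 in IL6Myc-4 and -0.02 in IL6Myc-5. Dnmt1 was lowest in IL6Myc-2 and highest in IL6Myc-3, while Uhrf1 was lowest in IL6Myc-4 and highest in IL6Myc-1. A relation of either gene to the list was not tested.

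**Figure D5:**
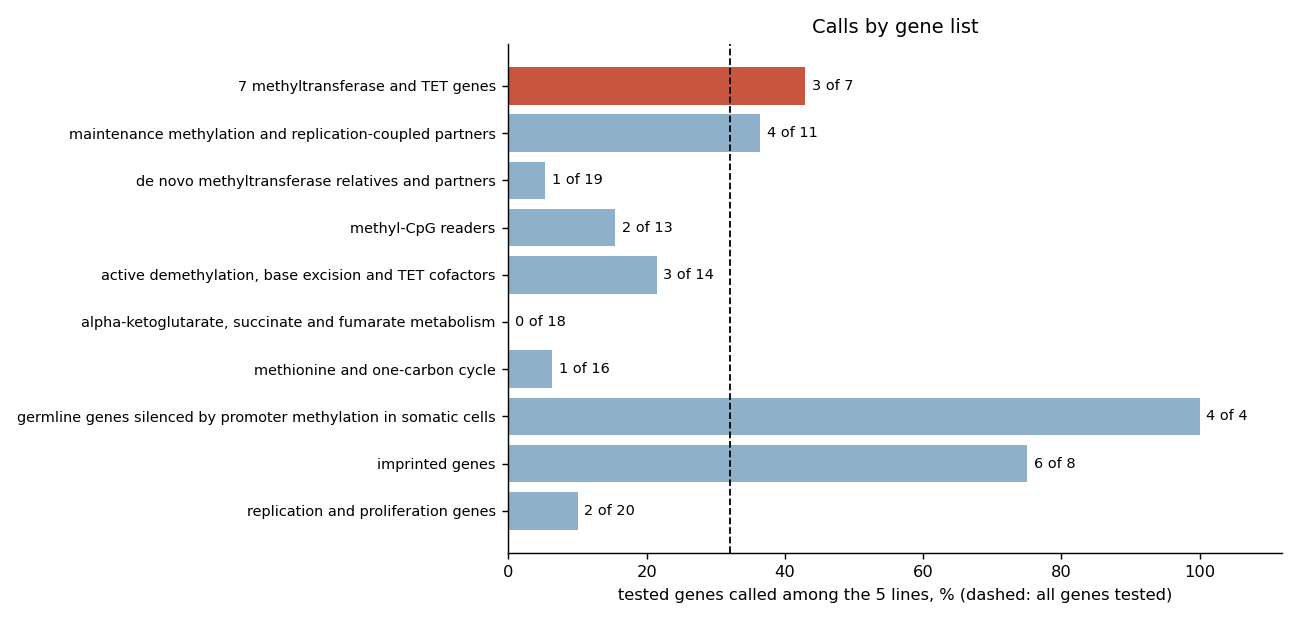
Share of the tested genes of each list that were called among the 5 lines, in percent, with the count beside each bar and the share of all tested genes (32.1%) as a dashed line. The 7 enzymes are at 3 of 7, most partner lists lie under the dashed line, and the bars of the germline and imprinted genes hold only the few members that passed the filter.

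Genes that depend on methylation for their silence or their imprint gave few readable values. Of 20 germline genes 16 did not pass the filter, and 14 stayed under 1 CPM in every library. The 4 that passed were all called, but Sycp1 and Tdrkh passed through a single line and so had to differ. Sycp1, a protein of the synaptonemal complex of meiotic chromosomes, had 193 counts in IL6Myc-2, against 1 count in IL6Myc-1 and 0 in the other 3 lines. Tdrkh, a piRNA pathway gene, had 167 counts in IL6Myc-3, against 1 to 4 counts in each other line. Of 20 imprinted genes 8 were tested and 6 called. The adjacent paternally expressed genes Sgce and Peg10 had 0 counts in all libraries of IL6Myc-1. In the other lines they had 201 to 479 and 50 to 205 counts. Grb10 was called higher in IL6Myc-2 and IL6Myc-4, at 5.11 ± 0.89 and 2.27 ± 0.19 CPM, against averages of 0.188 to 0.9 CPM in the other lines. Only IL6Myc-2 and IL6Myc-4 averaged above 1 CPM, so Grb10 passed the filter through the lines where it is high. The libraries of IL6Myc-5 disagreed in Grb10 (0.9 ± 1.46 CPM). Cdkn1c was called higher in IL6Myc-2 and IL6Myc-1, at 2.21 ± 0.59 and 0.7 ± 0.32 CPM, but IL6Myc-2 was its only line above 1 CPM on average, so it passed the filter through the line where it is high. These genes were listed for their known regulation, and no relation to the level of a methyltransferase was tested across the 5 lines.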

How the data were processed

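Per the labels' protocols, libraries were made with TruSeq Stranded Total RNA after RNeasy extraction. The build GRCm39, Trim Galore 0.4.0 and an unversioned DESeq2 are in the submitters' processing notes; for aligner, quantifier and strand setting, nothing is given in the sources used here. Although the deposited table is named for TPM, its columns sum to different totals and are not whole numbers, so its values were taken as estimated counts made by the authors; they were rounded to whole counts. Estimates corrected for transcript length would carry that into the levels.

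The 7 genes and the gene lists were chosen with earlier results of these data known. Genes at 1 CPM or more in at least 3 libraries were tested with edgeR 4.0.16 in R 4.3.3 (quasi-likelihood, TMM factors, line as the single factor over all 15 libraries), on simulated counts first. A call needed a Benjamini-Hochberg adjusted p under 0.05 over all 11773 genes and a log2 difference of at least 1. Levels are CPM on TMM sizes. Intervals are 95% and exact, for counting error only. The SE of a log2 difference was taken as its absolute size over the square root of edgeR's F statistic. For genes with few counts this SE is a rough guide. Named pathway genes are the up to 4 called genes of a list with the widest range; of these and the 3 most similar genes per called member, the text gives a selection. Levels were compared between genes per kb of the longest coding transcript of GENCODE M21. Names matched the GRCm38.p6 gene table without regard to case for 32009 entries (98.7%); since the builds differ, that table served for names and gene order. Alternatives were other size factors, counts without immunoglobulin genes, other filters, DESeq2 1.42.0, limma 3.58.1 on log2(CPM + 1) and log2(CPM + 5), a replicate block and leaving out each library. Replicates were not identical (r = 0.994 to 0.997 on log2 levels) and were kept apart.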

Additional observations from a re-analysis of the deposited data

Results flagged for a closer look

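Over the 5 line means of log2(CPM + 1), a line was picked out where its gap to the nearest other line took up more of the whole range than Dixon's 95% critical value for 5 values. Chance alone picks out about 1 in 20 groups of values, and 14 ends of 7 genes were examined. Dnmt3a in IL6Myc-1 was the lowest of the 5 means, with a gap of 0.799 of the range, and Tet3 in IL6Myc-2 was the highest, with a gap of 0.772. In Dnmt3a the 3 IL6Myc-1 libraries gave 0.439, 2.9 and 0.384 CPM, against 9.29 to 16.1 CPM over the 12 libraries of the other lines. In Tet3 the 3 IL6Myc-2 libraries gave 65.1, 65.8 and 69.7 CPM, against 23.9 to 31.9 CPM over the 12 others.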

How the results depend on the processing

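The 3 calls among the lines, 8 calls of a line against the other 4 and 19 calls between pairs were the same in number with other size factors, without immunoglobulin genes and with DESeq2, and no direction reversed in any alternative run. With a filter of 5 CPM, which leaves 5 of the 7 genes, 3 line calls and 8 pair calls were made. With limma on log2(CPM + 1) there were 4 line calls, and with limma on log2(CPM + 5) there were 2 line calls, 8 pair calls and 9 calls among pathway genes, where edgeR gave 23; a larger pseudocount shrinks differences of low genes such as Dnmt3b, whose log2 range was 0.98 there. Genes called over the whole table numbered 3783, against 2449 with the 5 CPM filter and 1594 with limma on log2(CPM + 5). Without 1 library at a time, 3 to 4 genes were called among the lines, 7 to 11 in a line, 17 to 21 between pairs and 21 to 23 among pathway genes; the highest counts for the 7 genes came without IL6Myc-3 replicate 1, through Tet1. Without a filter on low counts, Tet1 was called among the lines too (4 of 7). With a replicate block the counts were 3, 8, 19 and 23. The replicate numbers do not pair the libraries: correlations of same-numbered libraries ran from -0.0841 to 0.11, and 5 of 15 libraries correlated best with their own number. Low levels rest on few counts. This limits Tet1, with 28 to 129 counts by line, and Dnmt3b in IL6Myc-1 (12 counts) and IL6Myc-2 (2 counts).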
